A study of Mus musculus with 55 samples.

Results

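Genes for factors that hold RNA polymerase II near promoters or release it into productive elongation were followed in mouse embryonic stem (ES) cells leaving mitosis. The genes were chosen by name, and 9 symbols were looked up: Cdk9, Ccnt1, Ccnt2, Hexim1, Larp7, Nelfa, Nelfb, Supt6 and Aff4. A row for 8 of the 9 was found in both pre-mRNA tables, which list 9911 genes in CCNA-GFP cells and 10237 genes in CTCF-AID cells. Hexim1, which encodes an inhibitor of the pause-release kinase, was not analysed here. Both lines derive from the E14Tg2a line of the 129/Ola strain and were grown in serum and LIF. CCNA-GFP cells carry a cell cycle reporter and received no IAA. CTCF-AID cells carry CTCF fused to a degron that auxin (IAA) targets for destruction, and they were left without IAA or given it at 0.5 mM. In both lines, mitotic cells were obtained with the CDK1 inhibitor RO-3306 followed by nocodazole and shake-off, and were then released into medium without nocodazole. IAA was added in the second part of the nocodazole arrest and kept during the release, so the mitotic cells of that arm had also received it. Asynchronous cells of that arm were treated for longer than the mitotic cells, so stage and length of IAA exposure differ together there. There were 19 CCNA-GFP libraries (asynchronous and mitotic cells, 3 each; 20, 30, 40, 60, 90 and 120 min after release, 2 each; 50 min, 1) and 18 CTCF-AID libraries in each arm (asynchronous and mitotic cells, 3 each; 20, 40, 50, 60, 90 and 120 min, 2 each). Each genotype was 1 cell line, so the lines were not replicated, and the study's methods describe the replicates as independent. The mitotic and released cells had passed through both drugs, and asynchronous cells had not, so stage and drug exposure cannot be told apart in comparisons with asynchronous cells.

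Soon after RNA polymerase II starts a transcript, the negative elongation factor NELF and DSIF hold it a short distance downstream of the promoter. The kinase P-TEFb, made of CDK9 and a T-type cyclin, phosphorylates NELF, DSIF and the polymerase tail, after which NELF leaves and elongation proceeds. A pool of P-TEFb is kept inactive by the 7SK ribonucleoprotein, in which LARP7 protects 7SK RNA and HEXIM proteins inhibit the kinase, and active P-TEFb can be carried by the super elongation complex, whose scaffold is AFF4. SPT6, the product of Supt6, travels with elongating polymerase and handles histones. In ES cells pausing is common at promoters, and mitosis stops most transcription until chromosomes decondense.

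The data show a rise of these genes' own pre-mRNA during the first hour after mitosis, with different sizes and timing. By 60 min, all 8 genes had risen in CCNA-GFP cells and in CTCF-AID cells without IAA, and 7 of 8 had in CTCF-AID cells with IAA, beside 88.3%, 84.8% and 82.2% of all genes. Cdk9 and Supt6 rose most, by 1.65 ± 0.15 and 1.64 ± 0.14 on the log2 scale in CCNA-GFP cells (SE). Cdk9 and Larp7 had the largest changes at 40 min, Larp7 then fell by 120 min, Nelfb passed no test for a fall by then, and Aff4 had the smallest change at 60 min. IAA moved none of the 8 past the threshold at any stage. Values are TPM, a length-corrected share of each library, of the unspliced pre-mRNA, log2 changes are on the log2(TPM + 1) scale, which understates changes of low genes, and a gene is said to have risen or fallen where limma's Benjamini-Hochberg adjusted p was under 0.05.

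Most genes in the tables rose together. The listed pre-mRNA summed to between 13747 and 17245 TPM in the mitotic CCNA-GFP libraries and to between 30992 and 42576 TPM at 60 min, and from 17777 to 23302 TPM in mitosis to between 37872 and 39173 TPM at 60 min over both arms of CTCF-AID cells. The median gene rose from mitosis to 60 min by 0.79 on the log2 scale in CCNA-GFP cells, by 0.63 without IAA and by 0.63 with IAA, so each gene is also given relative to that median. In mitotic libraries the median log2(TPM + 1) was 0.872 to 1.05 in CCNA-GFP cells and 1.06 to 1.26 in CTCF-AID cells. Members other than Larp7 were at higher levels. The 1 added to each TPM shrinks the median gene's change more than theirs, so they can stand above the median for that reason. Read depth is unknown for TPM values, and the lines were deposited as separate tables, with no source used here saying whether they were scaled together, so levels in the lines are set side by side without a test. Times after release with 2 libraries were sampled in replicates 1 and 2 (20, 40, 60 and 120 min) or 1 and 3 (30, 50 and 90 min), and stage means therefore mix different replicates. Of 8 ES cell markers, 7 were listed in each table, with mean levels from 2.86 TPM up. Of 12 markers of other cells, 2 were listed in CCNA-GFP (T and Pax6) and 5 in CTCF-AID cells (also Col1a1, Thy1 and Cdx2), with mean levels up to 0.953 TPM, and none of the endoderm markers was among them. The summed level of the 5 was highest at 60 min in CTCF-AID cells, at 3.55 to 10.6 TPM without IAA and 4.79 to 9.63 TPM with IAA, against 0.681 to 1.89 TPM in mitosis over both arms, and in CCNA-GFP cells the summed level of T and Pax6 was 0.951 to 2.05 TPM at 60 min against 0.141 to 0.764 TPM in mitosis. The part of these genes in the results was not tested.

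In the GENCODE vM21 annotation of GRCm38 (mm10), the genes span from 7.29 to 71 kb, and a pre-mRNA value draws on reads over exons and introns alike. Cdk9 lies on chromosome 2 at chr2:32705784-32713076 on the minus strand. Ccnt1, at chr15:98538689-98570923 on the minus strand, overlaps the antisense gene 9330020H09Rik over 2260 bases. Ccnt2 occupies chr1:127774164-127808061 on the plus strand. Larp7, at chr3:127536714-127553349 on the minus strand, holds the ES cell microRNA genes Mir302b, Mir302c, Mir302a, Mir302d and Mir367 in an intron on the opposite strand. Nelfa, at chr5:33897916-33936413 on the minus strand, shares 60 bases at its end with Nsd2 on the plus strand. Nelfb, at chr2:25199712-25211489 on the minus strand, holds the snRNA gene Gm22572 on the opposite strand, and Aff4 is at chr11:53350833-53421830 on the plus strand. Small RNA genes also lie on the gene's own strand in Cdk9 (Mir2861 and Mir3960, touching an exon), Nelfa (Mir7024) and Aff4 (Gm25930 and Mir6920). Supt6, at chr11:78206746-78245987 on the minus strand, shares 242 bases at its start with Sdf2. The libraries were stranded, but whether the counting used strand is not given in the sources used here, so reads of Ccnt1, Larp7, Nelfa, Nelfb and Supt6 and of their partners on the other strand could not be told apart.

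The 250 bases upstream of the start site are shown for Larp7, Nelfb and Aff4, because their means differ in timing and size, with Larp7 falling back after a peak at 50 min, Nelfb highest at 90 min and Aff4 with the smallest rise to 60 min. The sequences are from RefSeq on GRCm38.p6, 5′ to 3′ on the gene's strand, at chr3:127553350-127553599 (minus), chr2:25211490-25211739 (minus) and chr11:53350517-53350766 (plus). Capitals mark every match, on either strand, to the GC box GGGCGG, the CCAAT box CCAAT, the E-box CACGTG and the TATA box TATAAA, and no matches overlapped in these 3 windows.
Larp7: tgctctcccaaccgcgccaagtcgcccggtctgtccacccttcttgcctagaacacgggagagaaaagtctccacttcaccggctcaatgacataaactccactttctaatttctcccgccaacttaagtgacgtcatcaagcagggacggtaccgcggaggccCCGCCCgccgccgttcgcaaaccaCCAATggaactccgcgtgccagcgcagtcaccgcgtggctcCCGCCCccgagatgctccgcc
Nelfb: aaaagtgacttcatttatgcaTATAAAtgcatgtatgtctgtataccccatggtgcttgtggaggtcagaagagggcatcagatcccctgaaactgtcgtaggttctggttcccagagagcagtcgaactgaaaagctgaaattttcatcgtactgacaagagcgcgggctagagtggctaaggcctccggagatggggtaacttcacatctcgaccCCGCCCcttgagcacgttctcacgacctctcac
Aff4: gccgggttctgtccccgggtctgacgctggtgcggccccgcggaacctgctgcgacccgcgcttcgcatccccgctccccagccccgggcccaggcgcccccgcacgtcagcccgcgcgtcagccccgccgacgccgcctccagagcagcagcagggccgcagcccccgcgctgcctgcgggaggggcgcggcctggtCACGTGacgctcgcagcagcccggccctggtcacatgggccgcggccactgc
The Larp7 window held 2 GC boxes and 1 CCAAT box, the Nelfb window 1 GC box and 1 TATA box, and the Aff4 window 1 E-box. Among all 32851 RefSeq windows of this length, 32.7% held a GC box, 33.8% a CCAAT box, 6.02% an E-box and 12.4% a TATA box. Guanine and cytosine made up 61.6% of the Larp7 window, 50.0% of the Nelfb window and 79.2% of the Aff4 window. A match to letters is a description, not a binding site.

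TPM is per length, so levels can be compared between genes. In asynchronous cells Ccnt2 pre-mRNA was highest of the 8, at 9.83 TPM on average in CCNA-GFP cells, 11.5 TPM without IAA and 11.2 TPM with IAA, and its 3 libraries did not overlap those of the next gene in any of the 3 arms. Larp7 was lowest, at 0.903, 0.865 and 0.815 TPM, again without overlap with its neighbour. In CCNA-GFP cells Ccnt1 (4.48 TPM), Cdk9 (4.42), Aff4 (4.05), Supt6 (2.96), Nelfa (2.67) and Nelfb (2.66) lay between, and each overlapped the next in its range. The same 6 genes lay between in CTCF-AID cells, where Aff4 was second in both arms, at 6.12 TPM without IAA and 5.72 TPM with IAA. By 60 min the order had shifted, and Cdk9 and Supt6 were at ranks 2 to 4 in every arm, behind Ccnt2.

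**Figure D1:**
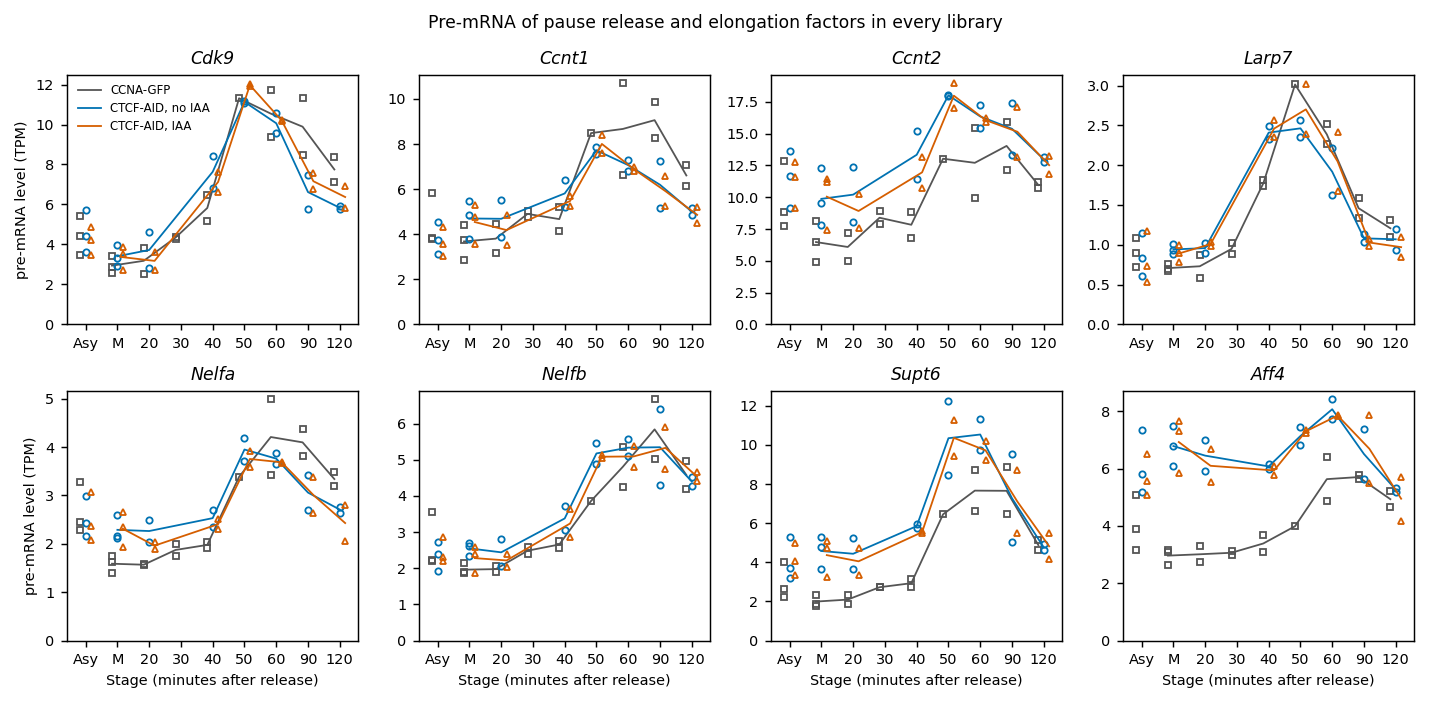
Pre-mRNA level (TPM, linear axis from 0) of the 8 genes in asynchronous cells (Asy), mitosis (M) and at each time after release in minutes. Each symbol is 1 library, and lines join stage means from mitosis to 120 min for CCNA-GFP cells (grey squares) and CTCF-AID cells without IAA (blue circles) and with IAA (orange triangles). Cdk9 climbs from about its mitotic level at 20 min to its highest means at 50 min, Larp7 peaks and returns, and the Aff4 libraries of CTCF-AID cells lie between 4.19 and 8.43 TPM after release.

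Of the 8 genes, none passed the threshold at 20 min in any arm, as for all genes of the tables (0% called in CCNA-GFP cells, 0% without IAA and 0% with IAA). In unadjusted terms none of the 8 had a p under 0.05 at 20 min, against 253, 397 and 149 genes in all. None was called at 30 min in CCNA-GFP cells (0.303% of all genes), and 1 had an unadjusted p under 0.05, as did 1135 of all 9911 genes. At 40 min 6 of 8 had risen in CCNA-GFP cells (49.3% of all genes), 6 of 8 without IAA (63.3%) and 6 of 8 with IAA (58.7%), and in each arm the exceptions were Nelfa and Aff4. Without replicate 1 the CCNA-GFP count at 40 min was 3, and without replicate 2 the count with IAA was 3. Without the replicate block the counts at 40 min were 2 in CCNA-GFP cells, 2 without IAA and 3 with IAA. At 50 min 7 of 8 had risen without IAA (79.1%) and 7 of 8 with IAA (78.2%), all but Aff4. The single CCNA-GFP library at 50 min was not tested. The counts at 60 min, 8 of 8 in CCNA-GFP cells (88.3%), 8 of 8 without IAA (84.8%) and 7 of 8 with IAA (82.2%), lay near the background, so the number that rose is not particular to these genes. The medians over the 8 were 1.06, 0.71 and 0.73 beside medians over all genes of 0.79, 0.63 and 0.63, with 7, 4 and 5 of the 8 above the median gene, and this difference was not tested. It also carries the stronger shrinkage of changes at low levels. With the same total in every library, 5, 3 and 4 of the 8 were above the median gene.

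At 90 min 8 of 8 stood above mitosis in CCNA-GFP cells (89.1% of all genes), 6 of 8 without IAA (74.8%) and 6 of 8 with IAA (73.8%), and at 120 min 8 of 8 (90.2%), 4 of 8 (69.6%) and 3 of 8 (68.2%). Those above at 120 min were Cdk9, Ccnt2, Nelfa and Nelfb without IAA and Cdk9, Ccnt2 and Nelfb with IAA. Without the replicate 3 libraries the counts at 90 min in CTCF-AID cells were 2 and 2, and without replicate 1 the count at 120 min with IAA was 6. From 60 to 120 min 2 of 8 fell in CCNA-GFP cells, Larp7 and Supt6 (28.5% of all genes fell), and 7 of 8, all but Nelfb, fell without IAA (53.1%) and with IAA (50.8%). The CCNA-GFP count was 0 without replicate 1, and without the replicate block 4 fell without IAA. All 8 were higher at 60 min than in asynchronous cells in CCNA-GFP cells (67.0%), without IAA (75.2%) and with IAA (72.2%), though only 5 in CCNA-GFP cells without replicate 1. Asynchronous cells stood above mitotic cells for 6 of 8 in CCNA-GFP cells (70.4%), all but Ccnt1 and Larp7, and for 2 of 8 without replicate 3 or without the replicate block. Asynchronous CTCF-AID cells stood above mitotic ones for Cdk9 alone without IAA (1 of 8, 34.3% of all genes) and for 0 of 8 with IAA (40.9%), where 3 of the 8 had an unadjusted p under 0.05 in either direction, as did 5462 of all 10237 genes. Ccnt1 was the 1 of 8 lower in asynchronous than in mitotic cells, without IAA (5.25% of all genes lower) and with IAA (5.89%). Neither CTCF-AID call in asynchronous cells without IAA held without replicate 3, where the log2 changes were 0.19 for Cdk9 and -0.26 for Ccnt1.

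The shared rise of the tables can be taken out by scaling each library to the same total (the equal-total scale), and the counts were then split in direction. At 40 min 2 of 8 were higher (23.7% of all genes) and 1 lower (31.1%) in CCNA-GFP cells, 2 higher (33.3%) and 3 lower (36.7%) without IAA, and 2 higher (33.2%) and 4 lower (38.5%) with IAA. At 50 min 2 were higher (40.7%) and 4 lower (33.6%) without IAA, and 2 higher (40.9%) and 4 lower (35.5%) with IAA. At 90 min 3 were higher (31.8%) and 1 lower (26.1%) in CCNA-GFP cells, 2 higher (34.5%) and 3 lower (25.6%) without IAA, and 2 higher (36.7%) and 4 lower (27.4%) with IAA. The counts at 120 min were 2 higher (28.7%) and 2 lower (23.4%) in CCNA-GFP cells, 2 (32.0%) and 4 (25.9%) without IAA, and 2 (33.5%) and 4 (28.7%) with IAA. In asynchronous CCNA-GFP cells none of the 8 was above mitosis (24.7%) and 2 were below it (20.2%), Ccnt1 (-0.26) and Nelfb (-0.14). In asynchronous CTCF-AID cells without IAA 1 of 8 was above mitosis and 4 were below it (2780 and 2195 of all 10237 genes). With IAA 0 were above it and 3 below it (3045 and 2291 genes). Supt6 (-0.32 and -0.25) and Aff4 (-0.31 and -0.45) were among the lower genes of both arms. Against asynchronous cells, 60 min had 5 higher (35.0%) and 1 lower (35.2%) in CCNA-GFP cells, 4 (37.5%) and 2 (32.9%) without IAA, and 5 (36.9%) and 1 (33.9%) with IAA, and Ccnt2, Nelfa and Aff4 turned negative in every arm. From 60 to 120 min 2 of 8 fell and 0 rose in CCNA-GFP cells (21.7% and 24.2% of all genes), 3 fell and 0 rose without IAA (26.5% and 25.6%), and 5 fell and 1 rose with IAA (27.2% and 26.6%). The gene that rose was Nelfb (0.19, limma adjusted p = 0.014).

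Cdk9 encodes the kinase of P-TEFb. In mitotic CCNA-GFP cells its pre-mRNA was at 2.86, 2.56 and 3.4 TPM in replicates 1, 2 and 3, in the 2 libraries at 40 min at 6.49 and 5.16 TPM, and in those at 60 min at 11.7 and 9.37 TPM. Every library from 40 min on lay above all mitotic ones. Without IAA, CTCF-AID cells went from 3.98, 2.9 and 3.34 TPM in mitosis to 11.1 and 11.2 TPM at 50 min and 5.91 and 5.76 TPM at 120 min. With IAA the levels were 3.51, 2.72 and 3.85 TPM in mitosis, 12 and 11.9 TPM at 50 min and 5.84 and 6.91 TPM at 120 min. The 2 groups of libraries, mitosis and 50 min, did not overlap in either arm. From mitosis to 60 min Cdk9 rose by 1.65 ± 0.15 in CCNA-GFP cells (limma adjusted p = 4.6e-09), by 1.41 ± 0.13 without IAA (adjusted p = 5.5e-10) and by 1.44 ± 0.13 with IAA (adjusted p = 3.1e-10). These changes exceeded those of the median gene by 0.86, 0.77 and 0.81. Asynchronous CCNA-GFP cells held 3.45, 4.4 and 5.41 TPM, so all 3 lay below both libraries at 60 min.

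Ccnt1 and Ccnt2 encode the T-type cyclins that pair with CDK9. Ccnt1 pre-mRNA was at 3.76, 2.86 and 4.41 TPM in mitotic CCNA-GFP cells, 10.7 and 6.65 TPM at 60 min and 3.83, 3.78 and 5.84 TPM in asynchronous cells, and Ccnt2 was at 6.45, 4.88 and 8.1, 15.4 and 9.97 and 8.88, 7.74 and 12.9 TPM in the same libraries. Both libraries at 60 min lay above all mitotic ones for both cyclins. In CTCF-AID cells without IAA, Ccnt1 went from 4.85, 3.78 and 5.46 TPM in mitosis to 7.56 and 7.88 TPM at 50 min and 4.86 and 5.14 TPM at 120 min, and asynchronous cells held 3.74, 3.11 and 4.55 TPM. With IAA it went from 4.75, 3.58 and 5.29 to 7.62 and 8.39 and 4.5 and 5.22 TPM, with 3.56, 3.03 and 4.31 TPM in asynchronous cells. In both arms each asynchronous library was below the mitotic library of its own replicate number, by -0.25 ± 0.09 (limma adjusted p = 0.036) and -0.25 ± 0.09 (adjusted p = 0.027) on the log2 scale, though the ranges of the groups overlapped. Neither call held without replicate 3 (-0.26 and -0.26, adjusted p = 0.16 and 0.13) or without the replicate block (adjusted p = 0.31 and 0.26), and asynchronous CCNA-GFP cells lay on the other side, at 0.22 ± 0.12 (adjusted p = 0.088). Ccnt2 in CTCF-AID cells rose from 9.57, 7.79 and 12.3 TPM to 17.2 and 15.5 TPM at 60 min without IAA and from 11.2, 7.45 and 11.5 to 16.2 and 15.9 TPM with IAA, without overlap. The rise to 60 min was 1.15 ± 0.13, 0.61 ± 0.10 and 0.63 ± 0.10 for Ccnt1 in CCNA-GFP cells, without IAA and with IAA, and 1.03 ± 0.13, 0.81 ± 0.12 and 0.77 ± 0.12 for Ccnt2. Relative to the median gene, Ccnt1 stood at 0.36 in CCNA-GFP cells but at -0.02 and -0.01 in the CTCF-AID arms, and Ccnt2 at 0.24, 0.18 and 0.13, but with the same total in every library both cyclins were below the median gene in each arm, Ccnt1 at 0.00325, -0.22 and -0.21 and Ccnt2 at -0.19, -0.10 and -0.15 against medians of 0.02, 0.06 and 0.06. The estimate for Cdk9 was above those of both cyclins in each arm, a difference between genes that was not tested.

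Larp7 encodes the protein that stabilises 7SK RNA. Its levels in CCNA-GFP cells were 0.697, 0.664 and 0.759 TPM in mitosis, 1.81 and 1.74 TPM at 40 min, 3.01 TPM in the single library at 50 min, 2.51 and 2.26 TPM at 60 min and 1.1 and 1.31 TPM at 120 min. Without IAA they were 0.935, 0.879 and 1.01 TPM in mitosis, 2.49 and 2.33 TPM at 40 min, 1.62 and 2.22 TPM at 60 min and 0.935 and 1.2 TPM at 120 min. With IAA they were 0.894, 0.784 and 0.991, 2.36 and 2.56, 1.68 and 2.41 and 0.846 and 1.09 TPM. The libraries at 40 min lay above all mitotic ones in each arm. The highest mean was at 50 min in all 3 arms, where CCNA-GFP cells had replicate 3 alone. Within replicate 1 without IAA, which was sampled at both times, the level was higher at 40 min than at 50 min (2.49 and 2.35 TPM), and with IAA it was 2.36 and 2.39 TPM. At 120 min 1 of 2 libraries in each CTCF-AID arm was back inside the mitotic range. Larp7 had risen by 0.71 ± 0.10 at 40 min in CCNA-GFP cells (limma adjusted p = 1.7e-05), 0.82 ± 0.11 without IAA (adjusted p = 5.1e-07) and 0.88 ± 0.11 with IAA (adjusted p = 1.9e-07). That was 0.45, 0.49 and 0.59 above the median gene, but at 120 min it stood -0.30, -0.24 and -0.28 from it. From 60 to 120 min Larp7 changed by -0.62 ± 0.11 (adjusted p = 0.00029), -0.49 ± 0.12 (adjusted p = 0.001) and -0.62 ± 0.12 (adjusted p = 9.9e-05), and the first had an adjusted p of 0.057 without replicate 1. With the same total in every library the second was -0.24 and was not called (adjusted p = 0.097). The Larp7 window printed above held GC and CCAAT boxes.

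Nelfa and Nelfb encode subunits of NELF, which holds the paused polymerase. Nelfa was at 1.39, 1.63 and 1.74 TPM in mitotic CCNA-GFP cells and 4.98 and 3.43 TPM at 60 min, at 2.15, 2.12 and 2.59 and 3.87 and 3.65 TPM without IAA, and at 2.34, 1.94 and 2.66 and 3.7 and 3.67 TPM with IAA. Nelfb was at 1.88, 1.86 and 2.14 TPM in mitotic CCNA-GFP cells, 5.37 and 4.24 TPM at 60 min and 4.18 and 4.97 TPM at 120 min. For both subunits the libraries at 60 min lay above all mitotic ones in each arm. Without IAA, Nelfb went from 2.61, 2.34 and 2.69 TPM in mitosis to 5.58 and 5.09 TPM at 60 min, 4.29 and 6.4 TPM at 90 min and 4.27 and 4.53 TPM at 120 min. With IAA it went from 2.38, 1.86 and 2.59 TPM to 5.38 and 4.8, 4.74 and 5.92 and 4.41 and 4.65 TPM. Nelfb had its highest mean at 90 min in all 3 arms, where replicates 1 and 3 were sampled, but within replicate 1 it was higher at 60 min. At 120 min both libraries of each arm were still above every mitotic one. Nelfa was later to pass the threshold than Nelfb, with 0.27 ± 0.12 at 40 min in CCNA-GFP cells (limma adjusted p = 0.064) beside 0.40 ± 0.13 for Nelfb (adjusted p = 0.012), although this difference between the subunits was not tested and Nelfa passed too with a pseudocount of 0.1 (adjusted p = 0.037). Their rises to 60 min in CCNA-GFP cells were 1.07 ± 0.12 for Nelfa and 1.06 ± 0.13 for Nelfb. In CTCF-AID cells they were 0.62 ± 0.08 and 0.91 ± 0.10 without IAA and 0.59 ± 0.08 and 0.98 ± 0.10 with IAA. At 120 min Nelfb stood 0.33, 0.34 and 0.49 above the median gene's change from mitosis.

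Supt6 encodes the histone chaperone SPT6, which accompanies elongating polymerase. Its pre-mRNA was at 1.88, 1.76 and 2.33 TPM in mitotic CCNA-GFP cells, 8.71 and 6.61 TPM at 60 min and 4.62 and 5.13 TPM at 120 min. Without IAA it was at 4.78, 3.64 and 5.31 TPM in mitosis, 9.74 and 11.3 TPM at 60 min and 4.61 and 4.92 TPM at 120 min, and with IAA at 4.75, 3.24 and 5.11, 9.22 and 10.2 and 4.14 and 5.49 TPM. At 60 min all libraries were above those in mitosis, whereas at 120 min both libraries without IAA and 1 of 2 with IAA were back inside the mitotic range. The rise to 60 min was 1.64 ± 0.14 in CCNA-GFP cells (limma adjusted p = 1.4e-09), 1.21 ± 0.15 without IAA (adjusted p = 7.9e-08) and 1.17 ± 0.15 with IAA (adjusted p = 1.3e-07). From 60 to 120 min it fell by 0.55 ± 0.15 (adjusted p = 0.0065), by 1.00 ± 0.16 (adjusted p = 1.9e-05) and by 0.89 ± 0.16 (adjusted p = 6.7e-05). The CCNA-GFP fall was -0.31 with an adjusted p of 0.27 without replicate 1. On the log2(TPM + 1) scale the Supt6 fall was the deepest of the 8 genes in both CTCF-AID arms, at percentiles 2.09 and 4.42 of all genes, counted from the largest fall. As plain TPM ratios of 120 to 60 min with IAA, Larp7 fell about as far. Its ratios were 0.504 and 0.453 in replicates 1 and 2, beside 0.450 and 0.537 for Supt6.

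Aff4 encodes the scaffold of the super elongation complex and is the longest of the genes. In CCNA-GFP cells it was at 2.65, 3.16 and 3.09 TPM in mitosis, 3.1 and 3.68 TPM at 40 min, 6.39 and 4.88 TPM at 60 min and 5.21 and 4.66 TPM at 120 min. Without IAA it was at 6.79, 6.08 and 7.51 TPM in mitosis, 6.17 and 5.99 TPM at 40 min, 8.43 and 7.72 TPM at 60 min and 5.34 and 5.2 TPM at 120 min. With IAA it was at 7.3, 5.83 and 7.66, 6.09 and 5.79, 7.83 and 7.88 and 4.19 and 5.72 TPM. In CCNA-GFP cells the libraries at 60 and 120 min lay above the mitotic ones, and in CTCF-AID cells those at 120 min lay below them. The change to 60 min was 0.79 ± 0.14 in CCNA-GFP cells (limma adjusted p = 3.1e-05), 0.30 ± 0.11 without IAA (adjusted p = 0.018) and 0.24 ± 0.11 with IAA (adjusted p = 0.051). Without replicate 2 the second was 0.30 with an adjusted p of 0.083, without the replicate block it was 0.22 with one of 0.19, and without replicate 1 the third had one of 0.0064 with a change of 0.38. At 120 min Aff4 had fallen below mitosis with IAA, by 0.34 ± 0.11 (adjusted p = 0.011), as 1 of 8 genes (4.42% of all genes fell), and stood at -0.23 ± 0.11 without IAA (adjusted p = 0.073). Whether the arms differed there was tested only as the IAA difference at 120 min, which was -0.09 ± 0.17 with an adjusted p of 1. Among all genes the change to 120 min was at percentile 2.88 without IAA, 2.23 with IAA and 45.5 in CCNA-GFP cells.

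**Figure D2:**
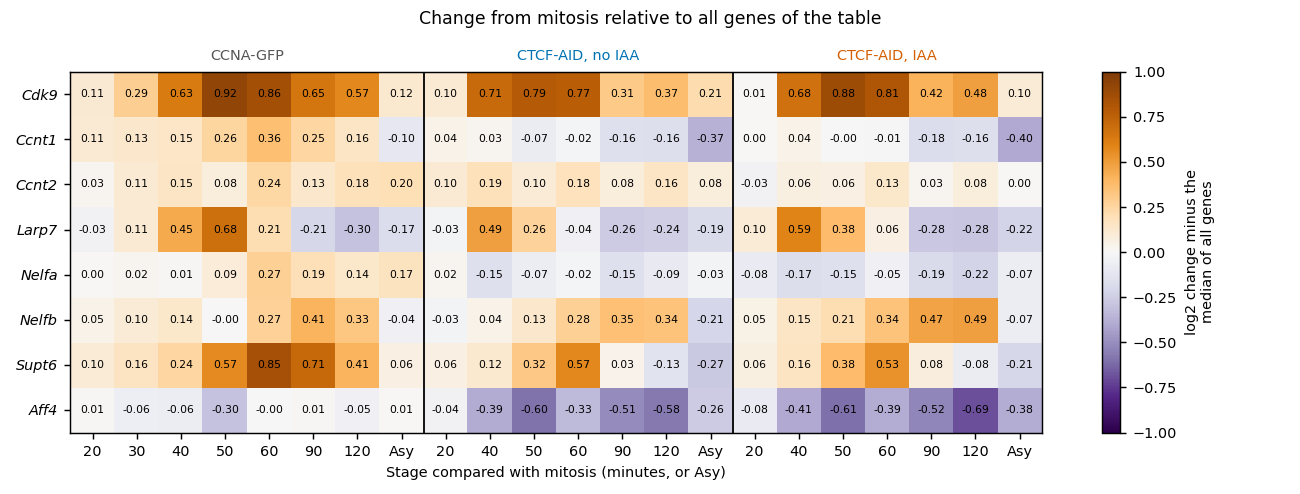
Log2 change from mitosis minus the median change of all genes in the same comparison, for each gene (rows) at each time in minutes and in asynchronous cells (columns), in the 3 arms. Purple cells are below the median gene and orange cells above it. Cdk9 is above the median gene from 40 min on in every arm, Larp7 crosses from above to below by 90 min, and Aff4 is below it in all CTCF-AID columns.

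On the equal-total scale the median gene moved from mitosis to 60 min by 0.02, 0.06 and 0.06 in CCNA-GFP cells, without IAA and with IAA, and the genes of the pausing machinery split. Cdk9 and Supt6 were higher than in mitosis in all 3 arms, by 0.50, 0.57 and 0.61 for Cdk9 and by 0.55, 0.35 and 0.31 for Supt6 on the log2 scale. Aff4 was lower in all 3 arms, at -0.30, -0.57 and -0.63, the opposite of its sign on the deposited scale, but in CCNA-GFP cells it was not called with each library's median subtracted instead (-0.0978, limma adjusted p = 0.41) or without the replicate block (adjusted p = 0.11). Supt6 in the CTCF-AID arms was likewise not called without the block (adjusted p = 0.068 and 0.11). On this scale 3 of 8 were higher in CCNA-GFP cells (36.3% of all genes), 3 of 8 without IAA (39.4%) and 3 of 8 with IAA (40.6%), the third being Larp7 (0.23) in the former line and Nelfb (0.14 and 0.21) in the latter. Lower were 2 of 8 in CCNA-GFP cells (33.2%), Aff4 and Ccnt2 (-0.19). Without IAA 3 of 8 were lower (31.1%), Aff4, Ccnt1 (-0.22) and Nelfa (-0.12), and with IAA 4 of 8 (33.2%), the same 3 and Ccnt2 (-0.15). With each library's median subtracted instead, 0 were lower in CCNA-GFP cells, Aff4 alone without IAA, and Aff4 and Nelfa with IAA, while Ccnt2 turned to 0.14, 0.0938 and 0.0571 in the 3 arms. In CCNA-GFP cells Larp7 was then not called (0.11, limma adjusted p = 0.21), and Ccnt1, Nelfa and Nelfb were called higher (0.27, 0.18 and 0.18). The subtracted median lies at a low level, where changes are shrunk, so it may take out too little for genes at higher levels. On the equal-total scale the shares of higher genes were near those of all genes, and the lower counts were not tested against the shares of all genes. On this scale the medians over the 8 were 0.06, -0.0363 and -0.0109. Cdk9 was called higher in each arm without any 1 replicate, whereas Supt6 was not called in the CTCF-AID arms without replicate 2 (0.20 and 0.17), nor Aff4 in CCNA-GFP cells without replicate 1 (-0.38) or replicate 2 (-0.19). Without replicate 1 the lower counts were 0, 1 and 1, and the calls of Larp7, Nelfb, Ccnt1, Ccnt2 and Nelfa were each lost in at least 1 arm. Without the replicate block the call of Nelfb without IAA was lost (limma adjusted p = 0.066). The calls of Ccnt2 in CCNA-GFP cells and with IAA were also lost then (adjusted p = 0.071 and 0.11).

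**Figure D3:**
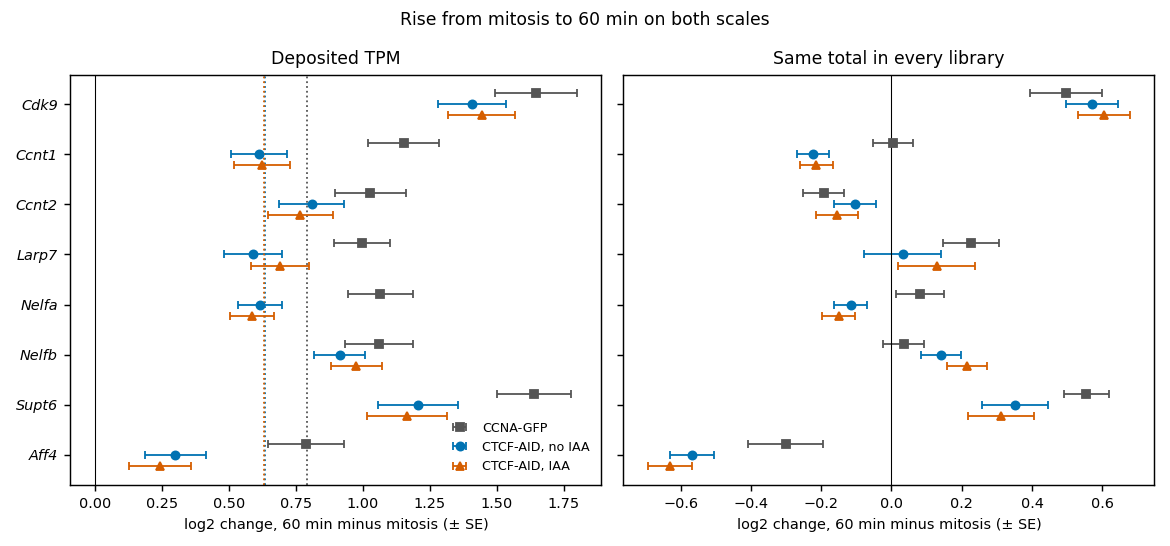
Log2 change from mitosis to 60 min (horizontal axis, points with SE) for the 8 genes, on the deposited TPM (left) and with the same total in every library (right), in CCNA-GFP cells (grey squares) and CTCF-AID cells without IAA (blue circles) and with IAA (orange triangles). Dotted lines mark the median gene of each arm. On the right, Cdk9 and Supt6 stay above 0 and Aff4 lies below it in all 3 arms.

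Other genes of pausing and elongation, a list of 30 covering the remaining 7SK, NELF, DSIF, super elongation complex, PAF, FACT and CDK12 factors, also rose by 60 min for the most part. At 60 min 28 of 29 listed had risen in CCNA-GFP cells (88.3% of all genes), 29 of 30 without IAA (84.8%) and 28 of 30 with IAA (82.2%), with 0, 0 and 1 lower, and with medians of 1.04, 0.82 and 0.91. With the same total in every library the list split, with 15 higher and 8 lower in CCNA-GFP cells (36.3% and 33.2% of all genes), 17 and 8 without IAA (39.4% and 31.1%) and 16 and 9 with IAA (40.6% and 33.2%). At 40 min 17 of 29 (49.3% of all genes), 21 of 30 (63.3%) and 18 of 30 (58.7%) had risen and none was lower, against 9 higher and 7 lower (23.7% and 31.1%), 10 and 10 (33.3% and 36.7%), and 12 and 12 (33.2% and 38.5%) with equal totals. From 60 to 120 min 11 of 29 (28.5%), 19 of 30 (53.1%) and 17 of 30 (50.8%) fell and 0, 1 and 1 rose, against 9, 12 and 16 that fell (21.7%, 26.5% and 27.2%) and 7, 6 and 9 that rose (24.2%, 25.6% and 26.6%) with equal totals. The largest change to 60 min in CCNA-GFP cells was that of Mepce, which encodes the enzyme that caps 7SK RNA, at 1.97 ± 0.16 (limma adjusted p = 1.2e-09). Mepce rose by 1.20 ± 0.17 without IAA and 1.34 ± 0.17 with IAA. The smallest was that of Tcea2, a paralogue of the TFIIS factor that rescues stalled polymerase, at -0.11 ± 0.09 (adjusted p = 0.27), with -0.05 ± 0.07 without IAA (adjusted p = 0.51) and -0.18 ± 0.07 with IAA (adjusted p = 0.031).

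The genes differ in span, and changes from mitosis tended to be smaller for longer genes at 40, 60 and 120 min, among the 8 and in the tables at large. Cdk9 (7.29 kb), Nelfb (11.8 kb) and Larp7 (16.6 kb) are the shortest, Ccnt1 (32.2 kb), Ccnt2 (33.9 kb), Nelfa (38.5 kb) and Supt6 (39.2 kb) are intermediate, and Aff4 (71 kb) is the longest. Spearman's rho between span and the change from mitosis to 40 min over the 8 genes was -0.57 in CCNA-GFP cells, -0.62 without IAA and -0.81 with IAA. Across the 9900 and 10225 genes matched by symbol it was -0.55, -0.58 and -0.64. At 60 min the values were -0.24, -0.55 and -0.57 over the 8 genes and -0.37, -0.36 and -0.42 over all, and at 120 min they were -0.36, -0.67 and -0.64 over the 8 and -0.24, -0.26 and -0.36 over all. Supt6 did not follow this order, being second in span and second in its change to 60 min in all 3 arms. These are descriptions across genes, which share libraries and are not replicates.

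**Figure D4:**
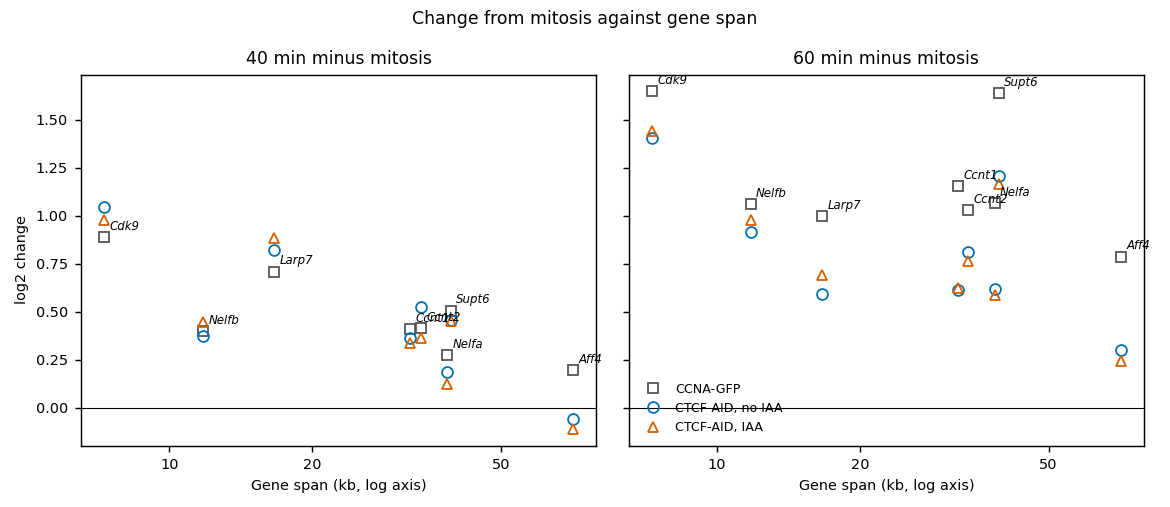
Log2 change from mitosis to 40 min (left) and 60 min (right) against gene span in kb on a log axis, with 1 symbol per gene and arm and names beside the CCNA-GFP symbols. At 40 min the short Cdk9 and Larp7 are highest and the long Aff4 lies lowest, and at 60 min Supt6 stands apart among the long genes.

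For each gene the most similar course was sought over the 25 stage means of both tables, after subtracting the median gene of each mean and centring each table, among the 6603 other genes whose mean reached 1 TPM in both tables. Cdk9 was closest to Impdh2 (Pearson r = 0.99) and Supt6 to Baz2a (r = 0.98). Larp7 was closest to Vamp1 (r = 0.97) and Ccnt1 to Snrnp48 (r = 0.96). For Nelfb it was Eaf1 (r = 0.96), itself one of the other elongation genes, for Nelfa it was Kpna1 (r = 0.91), and for Ccnt2 it was Zfp870 (r = 0.84), the lowest of those given. Between members, r was 0.75 for Cdk9 and Supt6, 0.71 for Nelfa and Aff4, 0.35 for Cdk9 and Ccnt1, -0.26 for the NELF subunits and -0.67 for Cdk9 and Aff4. The stage means share libraries, so no p is given.

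The IAA comparison asked whether loss of CTCF altered these genes at each stage. Ctcf pre-mRNA itself stood 0.24 ± 0.15 higher with IAA in asynchronous cells (limma adjusted p = 1), and was higher in 3 of 3 pairs of the same replicate number there and in 2 of 2 at each time from 40 to 120 min. With the replicate number as a block its asynchronous difference had an unadjusted p of 0.021 and an adjusted p of 0.50. Since IAA acts on the protein, this RNA does not check the depletion. A gene was called for IAA at an adjusted p under 0.1 with a log2 difference over 0.2 in size. None of the 8 genes was called at any of the 8 stages (1.21% of all genes were called at some stage), nor over the mean of 20 to 60 min (0.996%). None had an early difference distinct from that in asynchronous cells (0.0195%) or a different rise to 60 min (0%). With the replicate block, 164 genes in all were called over 20 to 60 min in place of 102, 42 in place of 2 for the early difference against asynchronous cells and 22 in place of 0 for the rise, and none of the 8 was among them. The 8 genes also had no unadjusted p under 0.05 in any of these comparisons, where between 23 and 295 of all genes did. Those counts are below a 0.05 share of all genes, so the fit without the block gave few small p-values and this absence adds little. With the replicate block none of the 8 had an unadjusted p under 0.05 either. Over 20 to 60 min the differences ran from -0.08 for Ccnt2, with a 95% interval of -0.32 to 0.16, to 0.05 for Larp7, with -0.10 to 0.20. For Cdk9 the difference was -0.03 (-0.23 to 0.16), for Supt6 -0.06 (-0.33 to 0.20) and for Aff4 -0.03 (-0.20 to 0.15). The 8 intervals ran between -0.33 and 0.20, and differences within them could not be detected at this precision. With the replicate number as a block the differences were the same and the intervals narrower, between -0.23 (Supt6) and 0.17 (Larp7), again with none of the 8 called. Of 64 pairs of gene and stage, 3 had libraries that did not overlap between arms, a share below the 13.9% of pairs over all genes, so the count is not a result about these genes. They were Cdk9 at 50 min, Nelfa at 20 min and Supt6 at 40 min, each with 2 libraries an arm.

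**Figure D5:**
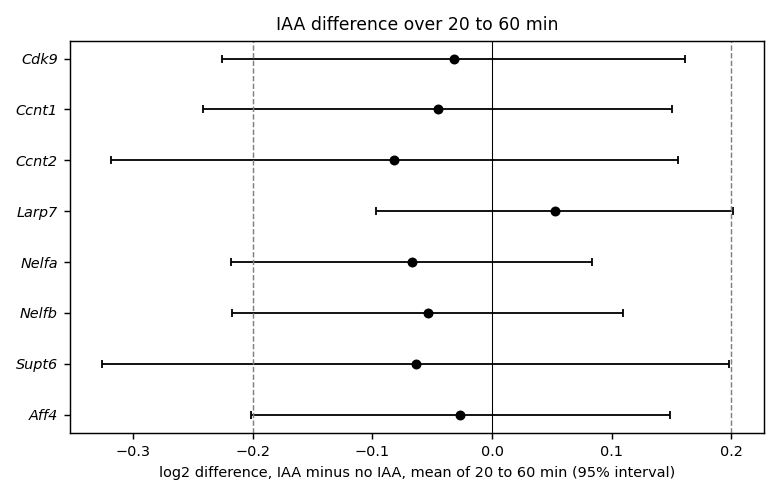
Log2 difference between CTCF-AID cells with and without IAA, averaged over 20, 40, 50 and 60 min (points with 95% intervals), for the 8 genes. Dashed lines mark differences of 0.2 in either direction. The fit had no replicate block. Every interval includes 0.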

How the data were processed

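Ribo-depleted, stranded RNA-seq libraries (55) of mouse ES cells were analysed from 2 tables of pre-mRNA expression. Per the labels and methods, the authors used STAR for alignment to mm10, and RSEM for quantification over Gencode genes that each carried an extra pre-mRNA isoform. The deposited values are TPM of that isoform, for genes whose mean passed the authors' level filter. TPM is a share of a library, so a shared rise of pre-mRNA stays in the values. Counts and depth were not analysed here, so no count test was run. The column names of 6 asynchronous CTCF-AID libraries were garbled and were resolved with the study's own supplementary table, which holds the same values.

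Differences were tested with limma 3.58.1 in R 4.3.3 (lmFit, eBayes with trend) on log2(TPM + 1) over all listed genes of a table, with Benjamini-Hochberg adjustment within each comparison. Stage comparisons had the replicate number as a block and were called at 0.05. IAA comparisons had no block, and were called at the study's thresholds of 0.1 and a log2 difference over 0.2. In CCNA-GFP cells, same-numbered libraries deviated together from their stage means in 20 of 20 pairs of stages (r from 0.18 to 0.84), so the numbers pair the samples there. Code was tested on simulated data. No 2 libraries of a group were copies (at most 0.313% of genes with equal values). Alternatives were equal totals, median subtraction, another pseudocount, a filter, the block and each replicate left out.

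The genes named were all listed members, the other elongation genes with the largest and smallest change to 60 min in CCNA-GFP cells, the gene most like each member, and Ctcf. The gene most like Aff4 is not reported here. The members and lists were chosen with earlier results of these data known.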

Additional observations from a re-analysis of the deposited data

Results flagged for a closer look

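The 3 genes Ccnt1, Supt6 and Aff4 differed in one direction in every replicate of CCNA-GFP cells. In every replicate of at least 1 CTCF-AID arm they differed in the other direction. The difference between the lines was not tested because the lines were deposited as separate tables. How many of all genes did the same was not counted. Over all genes the median change of asynchronous from mitotic cells was 0.33 in CCNA-GFP cells, 0.12 without IAA and 0.15 with IAA. The lower quartiles were 0.17, -0.0104 and 0.00862, so lower values in CTCF-AID cells were shared by the tables at large. Asynchronous minus mitotic cells gave 0.22 on the log2 scale for Ccnt1 in CCNA-GFP cells but -0.25 without IAA and -0.25 with IAA in CTCF-AID cells (3 replicates each). For Supt6 the same comparison gave 0.39 in CCNA-GFP cells and -0.15 in CTCF-AID cells without IAA (limma adjusted p = 0.38), where replicate 3 was nearly level (5.30 and 5.31 TPM), and -0.0596 with IAA, where 1 of 3 replicates was higher in asynchronous cells (adjusted p = 0.74). For Aff4 it gave 0.33, -0.14 and -0.24. Aff4 also differed at 40 min after release, with 0.17 in CCNA-GFP cells, -0.0683 without IAA and -0.12 with IAA over 2 replicates each. At 90 min the mean differences for Aff4 were 0.80 in CCNA-GFP cells, -0.13 without IAA and -0.16 with IAA. In the last of these arms 1 of 2 replicates was higher than in mitosis. At 120 min the mean differences for Aff4 were 0.61, -0.24 and -0.35. With the same total in every library, all 3 genes were below mitosis in asynchronous CCNA-GFP cells too. They stood at -0.26 for Ccnt1, -0.04 for Supt6 and -0.14 for Aff4, and only Ccnt1 passed (limma adjusted p = 0.0013, 0.55 and 0.24). On that scale Supt6 stood at -0.32 without IAA and -0.25 with IAA (adjusted p = 0.0036 and 0.014). Aff4 stood at -0.31 and -0.45 (adjusted p = 0.0001 and 9.8e-07), so both genes were called lower in both CTCF-AID arms. In CCNA-GFP cells Aff4 was also below mitosis at 40, 90 and 120 min, at -0.28, -0.22 and -0.29.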

How the results depend on the processing

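On the deposited scale, the log2 changes to 60 min and to asynchronous cells from mitosis, from asynchronous cells to 60 min and from 60 to 120 min kept their direction with a pseudocount of 0.1, with a filter of 1 TPM on the mean and without the replicate block. With equal totals, Ccnt1 at 60 min in CCNA-GFP went from 0.00325 to -0.0334 without the block. Under a pseudocount of 0.1, 2 calls changed (Nelfa at 40 min in CCNA-GFP became called, and Ccnt2 from 60 to 120 min without IAA was lost), and under the filter 1 did (Cdk9 from 60 to 120 min in CCNA-GFP became called). With the same total in every library, members above mitosis numbered 2 at 40 min in each arm, 2 at 50 min in both CTCF-AID arms, 3 at 60 min in each arm, 3 in CCNA-GFP and 2 in both CTCF-AID arms at 90 min, 2 at 120 min in CCNA-GFP and without IAA, and 0 in asynchronous CCNA-GFP cells. Those above asynchronous cells at 60 min numbered 5 in CCNA-GFP, 4 without IAA and 5 with IAA, and 3 fell by 120 min without IAA. That scaling also turned the sign of 39 log2 changes, which then read as follows. 60 min against mitosis, in CCNA-GFP Ccnt2 -0.19, Aff4 -0.30, in cells without IAA Ccnt1 -0.22, Ccnt2 -0.10, Nelfa -0.12, Aff4 -0.57, in cells with IAA Ccnt1 -0.21, Ccnt2 -0.15, Nelfa -0.15, Aff4 -0.63. Asynchronous against mitotic cells, in CCNA-GFP Cdk9 -0.0198, Ccnt1 -0.26, Ccnt2 -0.00264, Larp7 -0.11, Nelfb -0.14, Supt6 -0.0429, Aff4 -0.14, in cells without IAA Nelfa -0.0415, in cells with IAA Ccnt2 -0.0585, Nelfa -0.0900, Nelfb -0.0868. 60 min against asynchronous cells, in CCNA-GFP Ccnt2 -0.19, Nelfa -0.0125, Aff4 -0.16, in cells without IAA Ccnt2 -0.14, Nelfa -0.0749, Aff4 -0.26, in cells with IAA Ccnt2 -0.0958, Nelfa -0.0605, Aff4 -0.18. 120 against 60 min, in CCNA-GFP Ccnt2 0.0139, Nelfb 0.0973, Aff4 0.0117, in cells without IAA Ccnt2 0.0686, Nelfb 0.10, in cells with IAA Ccnt2 0.0335, Nelfb 0.19. The IAA difference over 20 to 60 min, Cdk9 0.00668 and Aff4 0.0156. Subtracting each library's median instead gave 5 members higher at 60 min in CCNA-GFP cells and 0, 1 and 2 lower in CCNA-GFP, without IAA and with IAA.

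Without the replicate block, members above mitosis numbered 2 (CCNA-GFP), 2 (without IAA) and 3 (with IAA) at 40 min, 2 in asynchronous CCNA-GFP cells, 2 at 120 min and 0 in asynchronous cells without IAA, and those that fell from 60 to 120 min 1 in CCNA-GFP and 4 without IAA. On the equal-total scale the unblocked fit gave 0 lower in CCNA-GFP and 1 higher without IAA. In CTCF-AID cells, deviations of same-numbered libraries from their stage means correlated above 0.1 in 86 of 88 pairs of stages (from -0.076 to 0.87), and 36 of 36 libraries correlated best with their own number, a hint from the data. Adding the block to the IAA comparisons changed no call among the members (0 in each), but over all genes it raised the calls from 103 to 249 in asynchronous cells.

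Leaving out each replicate number in turn, where a stage left with 1 library is assumed to vary like the others, gave these ranges of member counts: 3 to 5 (CCNA-GFP, above mitosis at 40 min), 5 to 8 (CCNA-GFP, above asynchronous cells at 60 min), 0 to 3 (CCNA-GFP, lower at 120 than at 60 min), 2 to 6 (CTCF-AID with IAA, above mitosis at 120 min), 3 to 6 (CTCF-AID with IAA, above mitosis at 40 min), 2 to 7 (CCNA-GFP, above mitosis in asynchronous cells), 2 to 6 (CTCF-AID without IAA, above mitosis at 90 min), 0 to 1 (CTCF-AID without IAA, above mitosis in asynchronous cells), 2 to 6 (CTCF-AID with IAA, above mitosis at 90 min), 0 to 1 (CCNA-GFP, lower at 60 min with equal totals), 1 to 2 (CTCF-AID without IAA, lower at 60 min with equal totals), 1 to 4 (CTCF-AID with IAA, lower at 60 min with equal totals). The log2 change turned sign without replicate 1 and, over the replicates left out, ran from -0.20 to 0.0304 for Larp7 in CTCF-AID cells without IAA (asynchronous against mitotic), from -0.25 to 0.0449 for Larp7 in CTCF-AID cells with IAA (asynchronous against mitotic), from -0.11 to 0.000693 for Supt6 in CTCF-AID cells with IAA (asynchronous against mitotic), from -0.43 to 0.0926 for Ccnt2 in CCNA-GFP (120 against 60 min), from -0.30 to 0.19 for Nelfb in CCNA-GFP (120 against 60 min). The cause of these dependences was not tested. Read depth, unknown for TPM, limits the precision of low genes such as Larp7 in ways these tables do not show.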
